A study of Mus musculus with 28 samples.

Results

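The 10 genes described here make or control the classical major histocompatibility complex (MHC) class I molecules and the peptides they display. They were taken from a fixed list of symbols, and all 10 were found among 49554 genes of the RefSeq table used: H2-K1 and H2-D1 (the heavy chains), B2m (their light chain), Tap1 and Tap2 (the peptide transporter), Tapbp (tapasin), Psmb8, Psmb9 and Psmb10 (the immunoproteasome) and Nlrc5 (a transcriptional activator of class I genes). The samples were cultures of 2 mouse tumor cell lines, B16OVA melanoma (B16 below) and MC38 colon adenocarcinoma. Each line had been transduced either with the empty pCRISPR-v2-puro construct (control) or with the same construct carrying a guide against Setdb1 (Setdb1 KO), and all 4 groups were grown in puromycin. Setdb1 encodes a methyltransferase for lysine 9 of histone H3. Chromatin cut with micrococcal nuclease was immunoprecipitated for trimethylated lysine 9 (H3K9me3), a mark of silenced chromatin, or for acetylated lysine 9 (H3K9Ac), a mark of active promoters. Each group had 3 numbered replicates per mark, so each mark had 12 libraries, and the labels do not say whether the replicates were separate cultures or whether a KO line was 1 clone. The series' design text places the interest in both marks at loci where exons join transposable elements; the comparisons below ask how both marks lie over the class I genes, and whether line or Setdb1 genotype changes them.

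A class I molecule presents short peptides from inside the cell to CD8+ T cells. The immunoproteasome cuts proteins into peptides, the Tap1 and Tap2 proteins carry them into the endoplasmic reticulum, tapasin holds the empty molecule beside the transporter, and the heavy chain leaves for the surface with its peptide and the product of B2m. Interferon raises the genes of this pathway together. NLRC5 acts on a part of them, with factors of the RFX, CREB/ATF and NF-Y families at a shared promoter module. Tumors often show less of this pathway than the tissue they come from.

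The deposited values are read counts in islands, stretches of 200 bp bins that the submitters' caller found enriched in 1 library. A gene region ran from gene start to gene end plus 2 kb on both sides (mm10; positions from RefSeq, GRCm38.p6). RPM is the island reads of a region per 1000000 counted reads of the library after TMM scaling, and values are mean ± SD over n = 3 libraries of a group unless given per library, in the order of replicates 1, 2 and 3. A level of 0 means that no island was called, not that no read was present. A change of level in a culture can come from more cells that carry the mark or from more of it per cell, and these cannot be told apart here. The libraries held 28453371 to 78087809 island reads for H3K9Ac and 15200766 to 45419584 for H3K9me3. The H3K9me3 library of MC38 Setdb1 KO replicate 3 stood apart, with 41012 islands against at least 49764 in the others. For the label of the lines, all 10 of 10 melanocyte markers had less H3K9Ac in MC38 than in B16 controls, and the melanocyte enzymes Tyr, Tyrp1 and Dct had no H3K9Ac island in any MC38 control library. The 12 markers of colon and simple epithelium did not set the lines apart, with 1 higher and 1 lower in MC38, 0 of 10 leukocyte markers passed (0 at an unadjusted p under 0.05 by edgeR, 0 called by DESeq2), and 2 of 7 tested fibroblast and mesenchymal markers were higher in MC38. The Setdb1 gene region had H3K9Ac of 76.6 ± 5.06 RPM in B16 controls and 78.8 ± 8.98 RPM in B16 Setdb1 KO cells, and 96.2 ± 7.73 RPM in MC38 controls and 111 ± 5.24 RPM in MC38 Setdb1 KO cells. This does not check the knockout, since a guide alters bases and not the presence of the region.

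Promoter letters were available for 8 of the 10 genes, all but Tap2 and Nlrc5. The 250 bases before the start sites of both heavy chain genes and of B2m are printed because they hold the module through which these genes are known to be switched on. The bases between Psmb9 and Tap1 are printed because these 2 genes start back to back. All are from RefSeq (GRCm38.p6), 5′ to 3′ in the direction of the gene named last, and position -1 is the base before the start site. Capitals mark matches, on either strand, to 4 letter patterns: GGG, any 2 bases, TT, any base and CC (a kappaB-like site, bound by NF-kappaB), AANNGAAA (the core bound by interferon regulatory factors), TGACG (the core bound by CREB/ATF) and CCAAT (bound by NF-Y). The windows are chr17:34000348-34000597 on the minus strand for H2-K1, chr17:35262844-35263093 on the plus strand for H2-D1, chr2:122147437-122147686 on the plus strand for B2m and chr17:34187331-34187555 on the plus strand for Psmb9 to Tap1. The start site used for H2-K1 (34000347) and its whole window lie inside the gene span, which reaches to 34000619. Positions and distances given for H2-K1 count from that start site.
H2-K1: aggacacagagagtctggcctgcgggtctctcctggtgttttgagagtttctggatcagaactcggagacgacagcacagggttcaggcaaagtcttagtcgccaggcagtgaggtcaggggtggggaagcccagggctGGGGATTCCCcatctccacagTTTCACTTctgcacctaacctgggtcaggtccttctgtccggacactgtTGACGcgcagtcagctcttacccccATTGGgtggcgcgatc
H2-D1: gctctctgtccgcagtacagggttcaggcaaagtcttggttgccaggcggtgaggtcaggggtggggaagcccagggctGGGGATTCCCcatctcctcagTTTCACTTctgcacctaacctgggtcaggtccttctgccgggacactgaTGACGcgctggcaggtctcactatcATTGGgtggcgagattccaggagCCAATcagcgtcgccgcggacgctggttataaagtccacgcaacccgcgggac
B2m: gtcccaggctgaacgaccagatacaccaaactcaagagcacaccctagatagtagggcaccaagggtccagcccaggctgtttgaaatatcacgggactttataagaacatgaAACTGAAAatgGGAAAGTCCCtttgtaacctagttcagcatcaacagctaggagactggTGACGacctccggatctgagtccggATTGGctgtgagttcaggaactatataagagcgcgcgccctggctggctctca
Psmb9 to Tap1: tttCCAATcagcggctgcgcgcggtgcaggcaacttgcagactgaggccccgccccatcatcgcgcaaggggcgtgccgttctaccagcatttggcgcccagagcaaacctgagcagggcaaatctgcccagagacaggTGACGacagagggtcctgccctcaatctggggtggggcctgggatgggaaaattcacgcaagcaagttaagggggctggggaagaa

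All 4 patterns were present in the windows of H2-K1, H2-D1 and B2m. The kappaB-like letters lay at -111 in H2-K1, -171 in H2-D1 and -126 (on the other strand) in B2m, and 4.11% of the 32851 promoter windows of this length held them. The interferon regulatory factor core stood 21 bases after the kappaB-like letters in both heavy chain genes and 11 bases before them in B2m, and 21.3% of all windows held it. TGACG was found in 17.8% and CCAAT in 33.8% of all windows. In all 3 genes TGACG was followed after 25 bases, start to start, by ATTGG, the other strand of CCAAT. This spacing was present in either orientation in 30 of all windows (0.0913%), those of the 3 genes included. It was read from H2-D1, so the match of H2-D1 was fixed in advance. The windows are of start sites, so a gene can have several. All 4 patterns occurred together in 24 windows (0.0731%). The 4 patterns were taken from the known module of class I genes, so finding them in these 3 genes is no test. A second start of H2-K1 lay 14 bases away, so this gene can count more than once. From the kappaB-like letters to the end of ATTGG the windows of H2-K1 and H2-D1 had 89 identical bases of 100, without gaps. Of the other 5 windows, those of Psmb9 and Tap1 held TGACG and CCAAT, that of Tapbp held CCAAT, and those of Psmb8 and Psmb10 held none of the 4, while Psmb8 had TTCNNNGAA (the letters bound by STAT dimers, in 7.02% of all windows) at -97. GGGCGG, the SP1 box, was found in Psmb9, Tap1 and Tapbp and in 32.7% of all windows. TATAAA was found in H2-D1, B2m and Psmb8 and in 12.4% of all windows. A match is a run of letters and not a measured binding site.

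H3K9Ac islands lay over the start sites of 7 of the 8 genes whose start is given in all 12 libraries, and over that of Psmb8 in 7 of 12. Per kb of region, B16 controls had the most H3K9Ac over B2m (3.08 ± 0.661 RPM per kb) and Psmb10 (2.41 ± 0.173), followed by Tapbp (1.82 ± 0.351) and H2-D1 (1.23 ± 0.445). Tap1 (0.835 ± 0.343), Psmb9 (0.824 ± 0.207), H2-K1 (0.676 ± 0.31), Nlrc5 (0.673 ± 0.183) and Tap2 (0.463 ± 0.196 RPM per kb) came next, each differing from its neighbor in this order by less than the sum of their SDs, and Psmb8 was last (0.161 ± 0.163). The order at the ends was much the same in MC38 controls, with Psmb10 (3.18 ± 0.219 RPM per kb) and B2m (2.78 ± 0.379) first and Psmb8 (0.679 ± 0.155) last. Tap2 moved from the ninth place to the fifth (1.48 ± 0.249 RPM per kb in MC38 controls). Some of these levels belong in part to neighbors: Patl2 spans B2m, Zbtb22, Gm19412 and Rgl2 lie at Tapbp, Ctrl and Lcat at Psmb10, Gm31082 at H2-K1, and 9330175E14Rik, Gm51584 and Mir7072 at Nlrc5, and the regions of Psmb9, Tap1, Psmb8 and Tap2 each overlap the next.

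**Figure D1:**
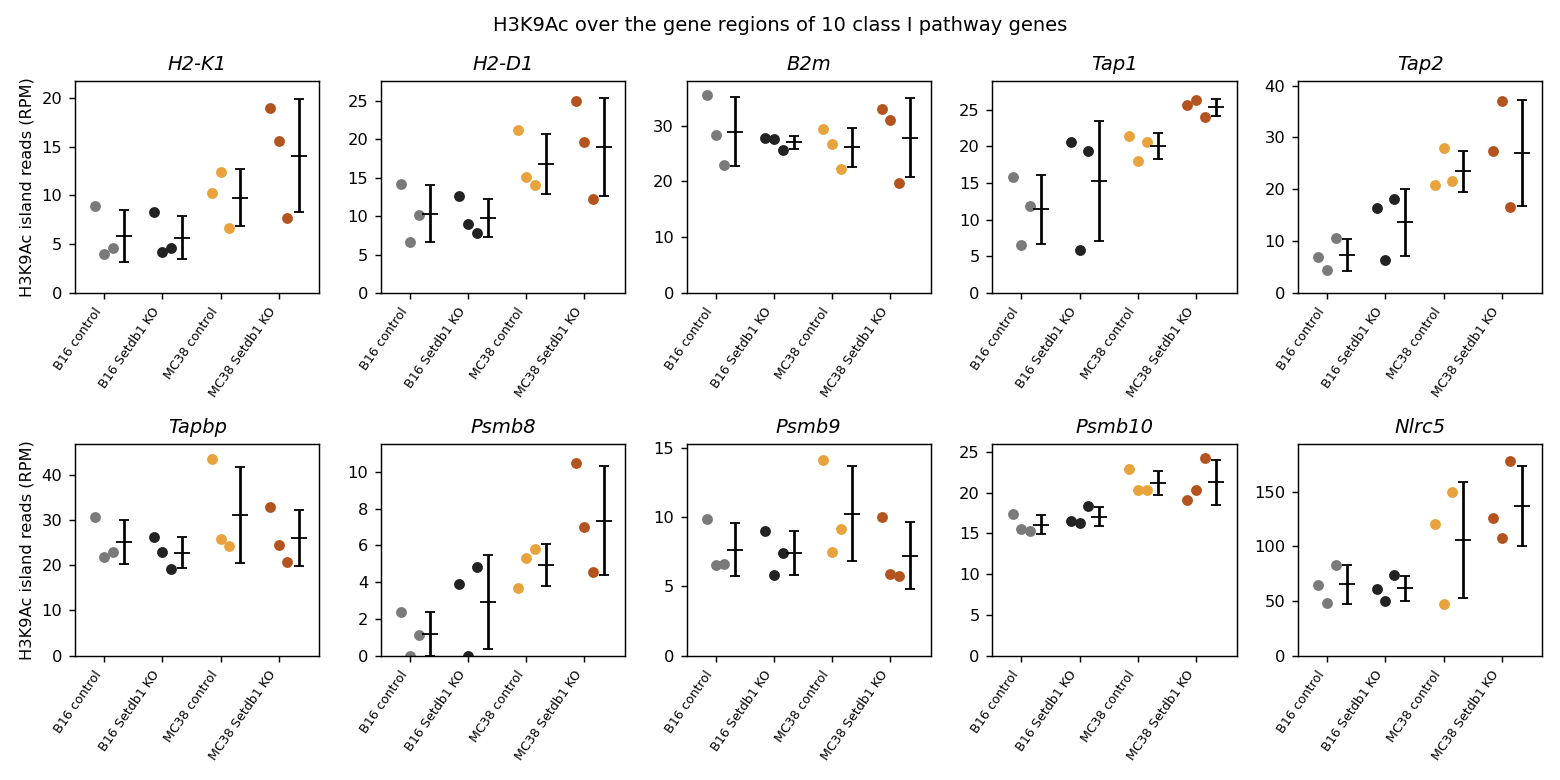
Each panel plots the H3K9Ac level of 1 gene region (island reads in RPM, linear axis from 0) in the 12 libraries; points are libraries in the order of replicates 1 to 3, and the bar beside them is the mean ± SD of the 3. MC38 lies above B16 for Tap2 in the controls, the 4 groups overlap for B2m, and Psmb8 has 0 in replicate 2 of both B16 groups.

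The heavy chain genes had larger mean H3K9Ac levels in MC38 than in B16, and neither passed the main test. With the replicate number as a block in the fit, edgeR called both in Setdb1 KO cells and neither in controls. DESeq2, without the block, did the same. H2-K1, on chr17:33996012-34000619, had 8.88, 4.01 and 4.57 RPM in B16 controls, 8.26, 4.19 and 4.60 in B16 Setdb1 KO cells, 10.2, 12.4 and 6.65 in MC38 controls and 18.9, 15.6 and 7.66 in MC38 Setdb1 KO cells. Replicate 1 was the highest in both B16 groups and the groups overlapped. Its log2 change of MC38 over B16 was 0.75 (SE 0.47, adjusted p = 0.307) in controls and 1.31 (SE 0.48, adjusted p = 0.0917) in Setdb1 KO cells. H2-D1, on chr17:35263094-35267497, had 14.1, 6.65 and 10.2 RPM in B16 controls and 21.3, 15.15 and 14.05 RPM in MC38 controls. B16 Setdb1 KO cells had 12.6, 8.98 and 7.79 RPM over H2-D1 and MC38 Setdb1 KO cells 24.99, 19.65 and 12.3 RPM. The lines overlapped in both genotypes, and the log2 changes were 0.70 (SE 0.35, adjusted p = 0.204) in controls and 0.96 (SE 0.35, adjusted p = 0.0951) in Setdb1 KO cells. H2-K1 and H2-D1 belong to a family of near-identical genes, so reads may have been shared or lost between its members at alignment.

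The light chain gene had close means in the 4 groups and did not pass in any comparison. B2m, on chr2:122147687-122153082, had 28.9 ± 6.21 RPM in B16 controls, 27 ± 1.18 in B16 Setdb1 KO cells, 26.1 ± 3.56 in MC38 controls and 27.9 ± 7.13 RPM in MC38 Setdb1 KO cells. Its island over the start site was 7.0 to 10.8 kb wide in the 12 libraries against a gene span of 5.4 kb.

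Tap2 was the 1 gene of the 10 whose H3K9Ac edgeR called between the lines. Over chr17:34204479-34216321 the level was 6.89, 4.49 and 10.6 RPM in B16 controls and 20.8, 28 and 21.6 RPM in MC38 controls, so that the lowest MC38 library had more than the highest B16 library. B16 Setdb1 KO cells had 16.5, 6.25 and 18.1 RPM and MC38 Setdb1 KO cells 27.5, 37.1 and 16.6 RPM, and these overlapped. The log2 change of MC38 over B16 was 1.68 (SE 0.46, adjusted p = 0.0292) in controls and 0.99 (SE 0.45, adjusted p = 0.172) in Setdb1 KO cells. The call was lost without B16 control replicate 1 (adjusted p = 0.0898) or replicate 2 (0.0964), without MC38 control replicate 1 (0.0542), replicate 2 (0.0817) or replicate 3 (0.0534), and without the 2 kb flanks (0.0545), with log2 changes of 1.42 to 1.78. In B16 the Setdb1 KO mean was above the control mean (13.6 ± 6.42 against 7.34 ± 3.11 RPM), with overlapping groups and an adjusted p of 1 at a log2 change of 0.89 (SE 0.45).

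Tap1, on chr17:34187556-34197225, had 15.9, 6.52 and 11.9 RPM in B16 controls and 21.4, 18 and 20.6 RPM in MC38 controls. In the Setdb1 KO cells it had 20.6, 5.80 and 19.3 RPM in B16 and 25.7, 26.3 and 24.1 RPM in MC38. The lines did not overlap in either genotype, yet the log2 changes of 0.81 (SE 0.44, adjusted p = 0.238) and 0.73 (SE 0.44, adjusted p = 0.29) did not pass. B16 replicate 2 was the lowest in both genotypes: without it the change was 0.53 in controls and 0.34 in Setdb1 KO cells, and within 2 kb of the Tap1 start it was 0.018 in Setdb1 KO cells. With stricter islands the change in Setdb1 KO cells was 1.345 and passed (adjusted p = 0.0443). Tapbp, on chr17:33919478-33929290, had 25.1 ± 4.85 RPM in B16 controls, 22.7 ± 3.47 in B16 Setdb1 KO cells, 31.1 ± 10.7 in MC38 controls and 26 ± 6.21 RPM in MC38 Setdb1 KO cells, all overlapping.

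Among the immunoproteasome subunits, Psmb10 had the highest H3K9Ac level and the smallest SD relative to its mean. Over chr8:105935728-105938392 it had 17.4, 15.5 and 15.2 RPM in B16 controls and 22.9, 20.4 and 20.4 RPM in MC38 controls. In the Setdb1 KO cells it had 16.5, 16.3 and 18.4 RPM in B16 and 19.1, 20.4 and 24.3 RPM in MC38. Every MC38 library was above every B16 library of its genotype, with log2 changes of 0.40 (SE 0.14, adjusted p = 0.0699) and 0.32 (SE 0.14, adjusted p = 0.154). The island over the Psmb10 start was 17.4 to 52.8 kb wide in B16 and 50.4 to 134.4 kb in MC38, against a gene span of 2.66 kb. Reads were apportioned by overlap, so the Psmb10 level is mostly the mean density of a stretch that runs far past the gene. Psmb8, on chr17:34198195-34201454, had islands in 2 of 3 libraries of each B16 group and in all 6 MC38 libraries, with 1.17 ± 1.18 and 2.91 ± 2.55 RPM in B16 controls and Setdb1 KO cells and 4.93 ± 1.13 and 7.34 ± 2.96 RPM in MC38. Its 2 B16 libraries without an island were both replicate 2. In MC38 control replicate 2 and MC38 Setdb1 KO replicate 3 no island covered the Psmb8 start, and the reads belonged to islands that lay on either side of it, over ground shared with Tap1 and Tap2. Psmb9, on chr17:34182030-34187330, had 7.67 ± 1.92, 7.41 ± 1.60, 10.3 ± 3.45 and 7.24 ± 2.44 RPM in B16 controls, B16 Setdb1 KO, MC38 controls and MC38 Setdb1 KO.

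Nlrc5, on chr8:94434335-94527272, had 64.8, 47.7 and 83.1 RPM in B16 controls and 120, 47.0 and 149 RPM in MC38 controls. Setdb1 KO cells had 60.5, 50.3 and 73.7 RPM in B16 and 125, 108 and 178 RPM in MC38, without overlap. The log2 change of MC38 over B16 was 1.16 (SE 0.39, adjusted p = 0.0692) in Setdb1 KO cells and 0.70 (SE 0.39, adjusted p = 0.249) in controls, where MC38 replicate 2 lay among the B16 libraries. Without that library the change in controls was 1.049 (adjusted p = 0.0342) and that in Setdb1 KO cells had an adjusted p of 0.0141. Without MC38 control replicate 3 the change in controls was 0.35 (adjusted p = 0.603). The strand of Nlrc5 is not given, so which of its ends is the 5′ end was not known. Within 2 kb of the gene end with more H3K9Ac reads, the log2 changes were 0.20 (adjusted p = 0.527) in controls and 0.005 (adjusted p = 1) in Setdb1 KO cells.

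Over the 10 genes, 1 was called higher and 0 lower in MC38 controls than in B16 controls by edgeR. Beside this, edgeR called 19.4% of all 33363 regions in either direction. DESeq2 called 2 (Tap2 and Psmb10), beside 10769 of the 33363 regions. In 4 of the 10 (Tap1, Tap2, Psmb8 and Psmb10) all MC38 controls exceeded all B16 controls, against 19.3% of all regions. In Setdb1 KO cells edgeR called 0 of 10, beside 17.9% of all regions. An unadjusted p under 0.05 by edgeR was reached by 4 of the 10, beside 10112 of the 33363 regions. DESeq2 called 4 (H2-K1, H2-D1, Psmb10 and Nlrc5), beside 10274 of the 33363 regions. With the replicate block edgeR called 3 (H2-K1, H2-D1 and Nlrc5), beside 8049 of the 33363 regions. MC38 lay above B16 without overlap in 3 of the 10 (Tap1, Psmb10 and Nlrc5), against 18.9% of all regions. Each count is of 10 genes, 4 of which lie side by side with overlapping regions, and is read only beside the share of all regions. The fitted change was above 0 for 9 of the 10 genes in both genotypes, against 47.6% of all regions in controls and 48.8% in Setdb1 KO cells, and for 8 to 10 and 7 to 10 genes over the alternatives. The median change over the 10 was 0.70 in controls and 0.85 in Setdb1 KO cells, and over all regions -0.005 and 0. Counted only within 2 kb of the 5′ end, the medians over the 10 were 0.49 and 0.18. For Tap2 and Nlrc5, whose strand is not given, the end with more reads was used, which may not be the 5′ end. The 9 are not the same: B2m was at -0.15 in controls and Psmb9 at -0.03 in Setdb1 KO cells.

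**Figure D2:**
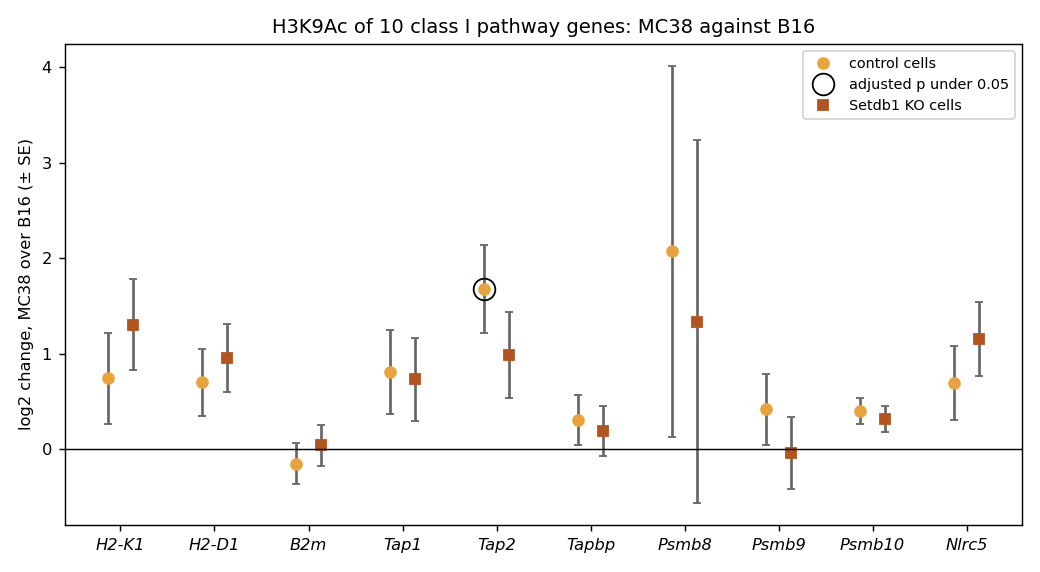
The plot gives the log2 change of H3K9Ac from B16 to MC38 for each gene (points, ± SE from edgeR) in control cells (circles) and Setdb1 KO cells (squares). The ringed Tap2 value in controls is the 1 that passed an adjusted p under 0.05, and the error bars of Psmb8 are the widest.

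No change of H3K9Ac between Setdb1 KO and control cells was called at any of the 10 genes in either line. In B16, edgeR called 0 of 10, 0 had an unadjusted p under 0.05, DESeq2 called 0, and 0.0839% of all regions were called. The replicate numbers paired the H3K9Ac libraries within each line, and with the replicate as a block edgeR also called 0 of the 10 in either line, while its calls over all regions went from 28 to 17 in B16 and from 42 to 25 in MC38. Control and Setdb1 KO libraries of B16 overlapped for all 10 genes, where 8.08% of all regions did not. In MC38, edgeR called 0 of 10 (0 at an unadjusted p under 0.05, 0 by DESeq2) beside 0.126% of all regions. Tap1 was the 1 gene whose Setdb1 KO libraries all exceeded the controls (24.1 to 26.3 against 18 to 21.4 RPM), where 3.78% of all regions did not overlap. Within same-numbered pairs, Tap2 had the larger H3K9Ac level in the Setdb1 KO library in all 3 pairs of B16, where 31.7% of all regions had 1 sign in all pairs. In MC38 this held for 5 of the 10, with the larger level in the Setdb1 KO library for H2-K1, Tap1 and Nlrc5 and in the control for Tapbp and Psmb9, against 19.1% of all regions. With the replicate block the adjusted p was 0.984 for Tap2 in B16 and 1 for H2-K1 in MC38. Of the heavy chains, H2-K1 had 14.1 ± 5.8 RPM in MC38 Setdb1 KO cells against 9.76 ± 2.92 RPM in controls, which gave an adjusted p of 1 at a log2 change of 0.53 (SE 0.47). The Setdb1 KO effect in MC38 minus that in B16 was called for 0 of 10 genes (0 at an unadjusted p under 0.05, 0 by DESeq2), beside 0.174% of all regions. The standard errors of the KO changes ran from 0.14 (Psmb10) to 0.47 (H2-K1) apart from Psmb8 (1.90 in B16 and 1.87 in MC38), so changes of small size at the heavy chains or the transporter were not detectable with these libraries.

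Within the 38.3 kb that hold Psmb9, Tap1, Psmb8 and Tap2 (chr17:34180030-34218321), the length covered by H3K9Ac islands ranged from 3.4 to 26.7 kb. Islands covered 7.6, 3.4 and 10.0 kb in B16 controls, 18.9, 4.0 and 18.9 kb in B16 Setdb1 KO cells, 14.4, 20.6 and 18.6 kb in MC38 controls and 22.5, 26.7 and 17.8 kb in MC38 Setdb1 KO cells. MC38 controls were all above B16 controls, and replicate 2 was the lowest in both B16 groups. The island over the shared start of Psmb9 and Tap1, 225 bases apart in the letters above, was 1.6 to 2.2 kb wide in the 6 B16 libraries and 2.6 to 12.2 kb wide in the 6 MC38 libraries. From 1.0 to 1.2 kb downstream of the Tap1 start it was present in all 6 MC38 libraries and in no B16 library. In Tap2, H3K9Ac was present in all 6 MC38 and absent from all 6 B16 libraries from 1.5 to 2.9 kb and from 5.3 to 5.9 kb from the left end of the gene, together 2.0 kb or 12.5% of its bins of 200 bp. Over the genome, bins with H3K9Ac in 6 of 6 MC38 and 0 of 6 B16 libraries were 0.697% of the bins that held an island of either mark in any library. No gene of the 10 had a bin with the opposite H3K9Ac pattern.

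**Figure D3:**
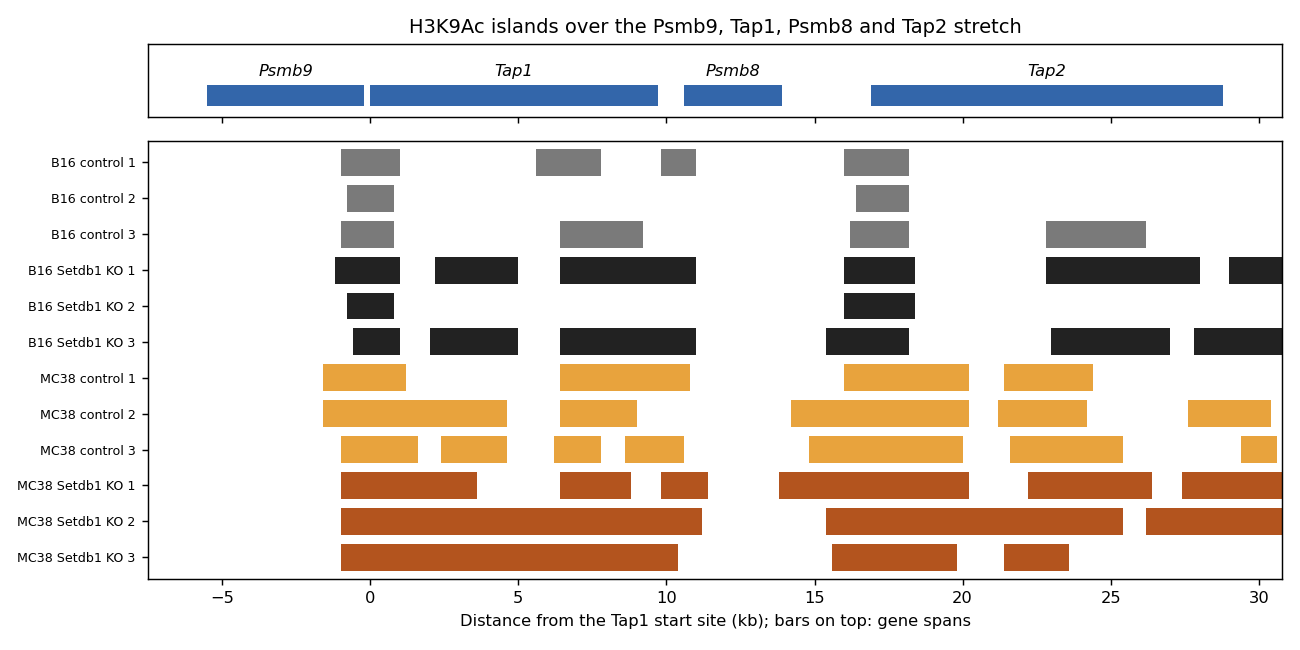
Bars are the H3K9Ac islands of each library (rows) over the stretch of Psmb9, Tap1, Psmb8 and Tap2, plotted by distance from the Tap1 start site in kb, with the gene spans on top. The islands at the Tap1 start and near 16 to 18 kb are present in all 12 libraries; those of MC38 are wider, and both B16 replicate 2 libraries have only these 2.

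H3K9me3 was scarce over the class I genes and lay mostly in B16. Across all 12 libraries no H3K9me3 island touched the regions of H2-D1, Tap1, Tapbp, Psmb8 or Psmb10. B2m had one in 1 library (B16 Setdb1 KO replicate 3, 3.35 RPM), ending 1.3 kb before its start, and Tap2 had the edge of one in 1 library (B16 control replicate 1, 1.85 RPM). The remaining 3, H2-K1, Psmb9 and Nlrc5, had a mean of at least 10 island reads and were tested.

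Nlrc5 had the most. Its region held 117, 149 and 112 RPM of H3K9me3 in B16 controls and 130, 258 and 248 RPM in B16 Setdb1 KO cells, and no island in any of the 3 MC38 control libraries. MC38 Setdb1 KO cells had an island in replicate 3 only (21.4 RPM), at 43.3 to 45.9 kb from the left end, where no B16 library had one. H3K9me3 was present in all 6 B16 and absent from all 6 MC38 libraries at 16.3 to 18.1, 25.1 to 27.1 and 28.1 to 32.9 kb, together 8.6 kb or 8.85% of the bins of the region. Over the genome, such bins were 1.09% of those that held an island of either mark in any library. H3K9Ac had bins of the reverse kind: it was present in all 6 MC38 and absent from all 6 B16 libraries at 0.7 to 1.1, 21.1 to 22.5 and 23.3 to 25.1 kb, the last 2 between the first and the second of these runs. In the 16.6 kb from the first to the last run, H3K9me3 islands covered 13.4 to 15.8 kb in the 6 B16 libraries and 0 kb in the 6 MC38 libraries, and H3K9Ac islands covered 0 kb in the 6 B16 and 4.2 to 8.4 kb in the 6 MC38 libraries. These windows were set after the islands had been seen and carry no test. None of the bins of Nlrc5 held both patterns at once, as 723 bins of the genome did. At the left end of the gene, H3K9Ac was present in all 12 libraries. The strand and the exons of Nlrc5 are not in the table used here.

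**Figure D4:**
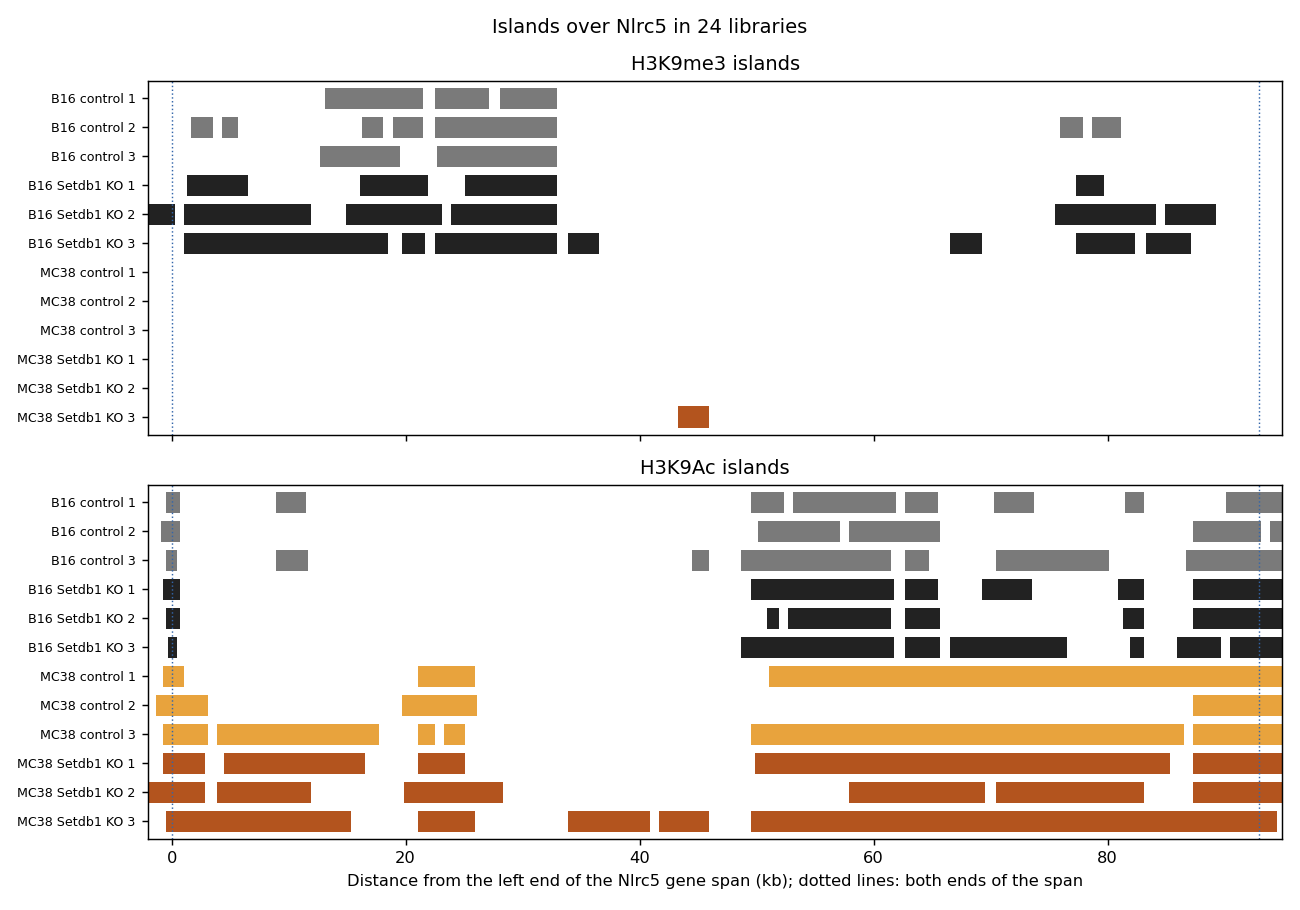
Bars are islands of H3K9me3 (upper panel) and H3K9Ac (lower panel) over Nlrc5 in each library (rows), by distance from the left end of the gene span in kb. H3K9me3 covers 16.3 to 32.9 kb in part in all 6 B16 libraries. MC38 has H3K9Ac at 21.1 to 22.5 and 23.3 to 25.1 kb in all 6 libraries, and MC38 control replicate 2 has no H3K9Ac island from 26.1 to 87.3 kb.

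The difference between the lines over Nlrc5 was near the threshold. In controls edgeR gave an adjusted p of 0.052, and from 0.00153 to 0.133 over 20 alternatives, of which 8 passed; no fold change is given because the MC38 controls had no island. Without MC38 Setdb1 KO replicate 3, the library that stood apart, the adjusted p in controls was 0.00153. In Setdb1 KO cells the adjusted p was 0.208. Within B16, the Setdb1 KO libraries had more H3K9me3 over Nlrc5 on average (212 ± 71.4 against 126 ± 20 RPM), with overlap and an adjusted p of 1. The added islands lay outside the shared runs: to the left of them H3K9me3 covered 3.2, 3.2 and 3.6 kb in B16 controls and 5.4, 14.5 and 15.2 kb in B16 Setdb1 KO cells, a window set after the islands were seen.

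At H2-K1 the H3K9me3 shared by the B16 libraries lay before the start site. All 6 B16 libraries had an island over the stretch from 2.5 to 0.7 kb upstream; that of control replicate 2 went on to 0.3 kb past the start, and Setdb1 KO replicate 3 had a second island from 2.5 to 5.3 kb downstream, which is counted in its level. The H3K9Ac stretch shared by all 6 ran from 0.5 kb upstream to 0.7 kb downstream, over the letters printed above. In control replicates 2 and 3 and all Setdb1 KO replicates, the islands of both marks overlapped. There H3K9me3 ended at most 0.3 kb upstream, where H3K9Ac began 0.5 to 0.7 kb upstream. In control replicate 1 both met at 0.7 kb upstream. Setdb1 KO replicate 1 also had an H3K9Ac island from 4.5 to 1.7 kb upstream. The level over the region was 12.5, 17.4 and 16.7 RPM in B16 controls and 15.3, 14.7 and 24.5 RPM in B16 Setdb1 KO cells. MC38 controls had no island, and of the MC38 Setdb1 KO libraries replicate 3 had 15.5 RPM. In controls edgeR gave an adjusted p of 0.109, and without MC38 Setdb1 KO replicate 3 it gave 0.0141. H2-D1, whose promoter shares most of its letters with H2-K1, had no H3K9me3 island in the 2 kb before its start in any library, where H2-K1 had 102 to 144 island reads in each B16 library.

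**Figure D5:**
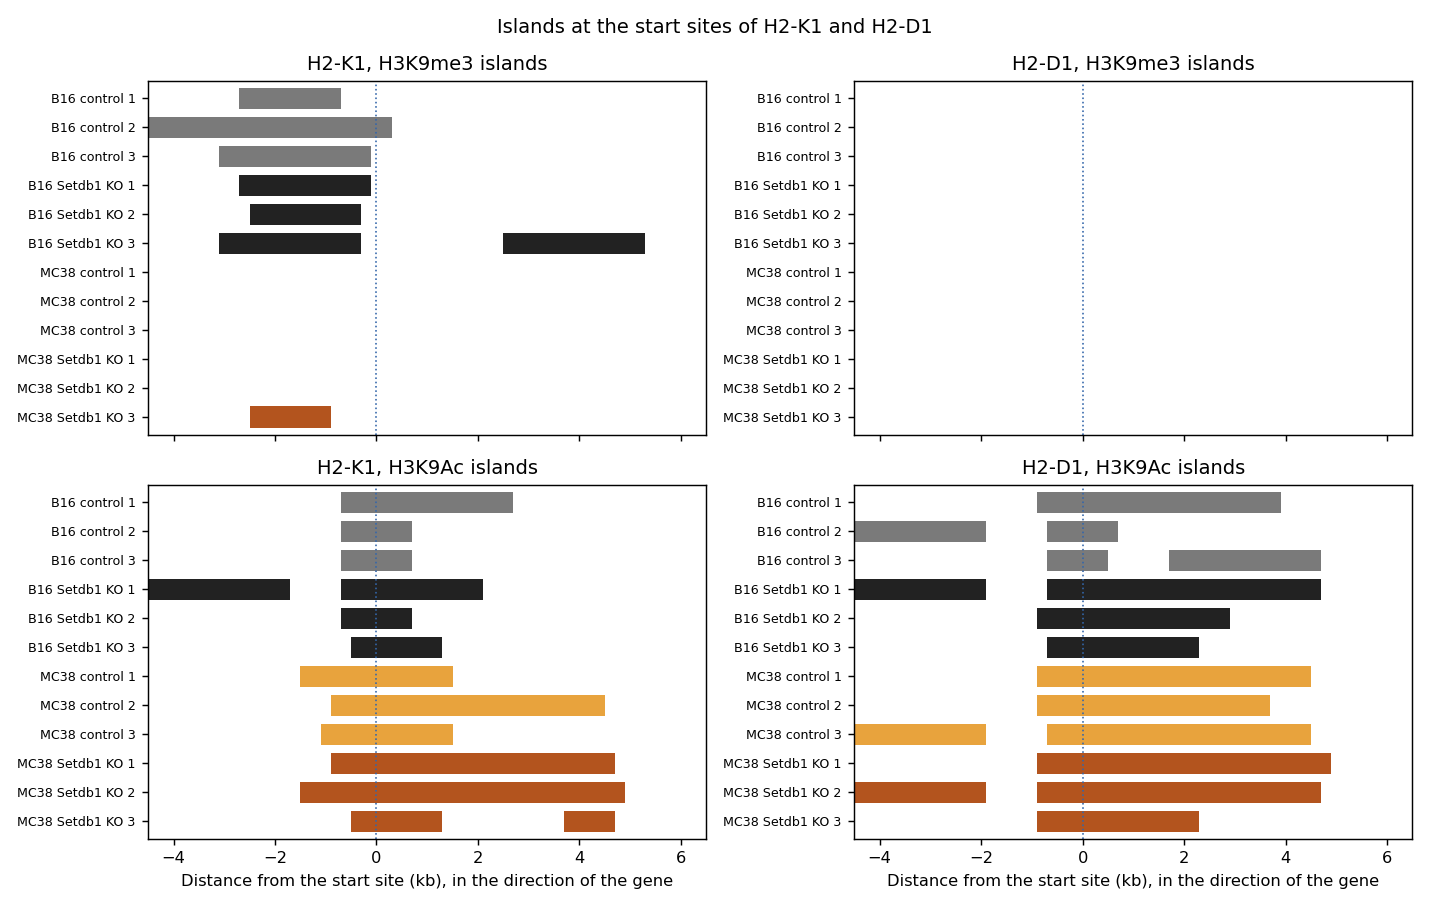
Bars are islands of H3K9me3 (upper row) and H3K9Ac (lower row) at H2-K1 (left) and H2-D1 (right) in each library, by distance from the start site in kb along the gene. All 12 libraries have H3K9Ac over both start sites, the 6 B16 libraries and MC38 Setdb1 KO replicate 3 have H3K9me3 upstream of H2-K1, and H2-D1 has no H3K9me3 island.

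The Psmb9 region held the near part of islands that began 5.7 to 7.1 kb past its start, beyond the gene's 3′ end. That part ranged from most of the island (99 of 126 reads in B16 control replicate 1) to its edge (10 of 454 in MC38 control replicate 2). The level was 9.65, 10.6 and 2.27 RPM in B16 controls, 0, 5.57 and 5.80 RPM in B16 Setdb1 KO cells, 1.38 RPM in MC38 control replicate 2 and 3.41 RPM in MC38 Setdb1 KO replicate 3, and the other 4 MC38 libraries had none.

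For H3K9me3 in controls, edgeR called 0 of the 3 tested genes, beside 7.13% of all 25677 regions. Of the 3, 2 (H2-K1 and Nlrc5) had an unadjusted p under 0.05, beside 6386 of the 25677 regions. DESeq2 gave a p for Psmb9 alone and called 0. All B16 libraries exceeded all MC38 libraries for 3 of these 3, where 20.7% of all regions did; 3 genes that reached the mean of 10 reads through B16 are too few to set against that share. In Setdb1 KO cells 0 of 3 were called (0 at an unadjusted p under 0.05, 0 by DESeq2), beside 8.00% of all regions. Over all regions, the median log2 change of MC38 over B16 controls was -0.20 with TMM, -0.29 with DESeq2's size factors and -0.65 with total island reads. For the Setdb1 KO effect, edgeR called 0 of 3 in B16 (0 at an unadjusted p under 0.05; 0.312% of all regions) and 0 of 3 in MC38 (0.136% of all regions). In MC38 H2-K1 and Nlrc5 had unadjusted p-values under 0.05, beside 1759 of all regions. Both rest on the islands of replicate 3, the only Setdb1 KO library with any. The Setdb1 KO effect differed between the lines for 0 of 3, beside 0.397% of all regions. The same 2 had an unadjusted p under 0.05, beside 2408 of all regions. DESeq2 called 0 in these 3 comparisons and gave a p for Psmb9 alone.

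The calls among the other genes of the pathway went in both directions between the lines, as did those of all regions (3271 higher and 3201 lower in MC38 controls, together the 19.4% given above). Of 16 further genes of antigen processing and peptide loading, H3K9Ac in MC38 controls was higher at 2 and lower at 3 by edgeR. The median change was -0.04, and DESeq2 called 7, beside 10769 of all 33363 regions. Erap1, which trims peptides in the endoplasmic reticulum, had 15.0 ± 2.70 RPM in B16 and 53.7 ± 11.2 RPM in MC38 controls (log2 change 1.83, SE 0.17, adjusted p = 0.000157). Tpp2, a cytosolic peptidase, had 129 ± 23.4 and 58.8 ± 7.91 RPM (log2 change -1.13, SE 0.17, adjusted p = 0.00143), and Sec61a1, a subunit of the membrane channel, had 74.3 ± 6.05 and 54.5 ± 1.63 RPM (log2 change -0.45, SE 0.08, adjusted p = 0.00282). In the KO comparisons edgeR called 0 of the 16 in either line (4 at an unadjusted p under 0.05 in B16 and 1 in MC38), and DESeq2 called 2 in B16 and 0 in MC38. Of all 33363 regions, 1376 in B16 and 1043 in MC38 had an unadjusted p under 0.05. DESeq2 called 1024 and 874 of them. The smallest p-values were at Npepps (83.6 ± 7.61 RPM in controls and 104 ± 4.74 RPM in Setdb1 KO cells), Sec61a1 and Erap1 in B16, and at Erap1 (53.7 ± 11.2 and 39.1 ± 2.49 RPM), Psme1 and Npepps in MC38. Of 29 regulators of class I genes, 5 were higher and 4 lower in MC38 controls by edgeR, with a median of -0.02. DESeq2 called 11, beside the same 10769 of all regions. Ezh2, the methyltransferase of Polycomb repressive complex 2, had 176 ± 28.6 RPM in B16 and 31.7 ± 7.77 RPM in MC38 (log2 change -2.47, SE 0.31, adjusted p = 0.000578). Relb, of the NF-kappaB family, had 42.8 ± 4.58 and 83.9 ± 9.11 RPM (log2 change 0.97, SE 0.15, adjusted p = 0.00151). Rfx5, whose protein acts with NLRC5, was also higher in MC38 (log2 change 0.83, SE 0.13, adjusted p = 0.00178). In the KO comparisons edgeR called 0 of the 29 in either line (2 at an unadjusted p under 0.05 in B16 and 0 in MC38; 0 by DESeq2), with the smallest p-values at Tyk2, Relb and Jak2 in B16 and at Stat3, Ifngr1 and Atf1 in MC38. For H3K9me3, 4 of the 16 and 7 of the 29 had enough reads, and the 1 call of edgeR in controls was Tpp2, with 81.2 ± 26.4 RPM in B16 controls, 24.9 ± 10.4 RPM in B16 Setdb1 KO cells and no island in MC38 (adjusted p = 0.00567 for controls). Of the 7 regulators edgeR called 0 in controls (4 at an unadjusted p under 0.05) and DESeq2 called 5. Of all 25677 regions, 6386 had an unadjusted p under 0.05 in controls, and DESeq2 called 7042. Among those with the next smallest p in controls were Psmb7 and Erap1 of the 16, and Ezh2, Creb1 and Stat3 of the 29. In the KO comparisons edgeR called none of these 11, and DESeq2 called 0. An unadjusted p under 0.05 was reached by 1 in B16, beside 1985 of all regions, and by 0 in MC38. The smallest p-values were at Tpp2, Lnpep, Psmb7, Creb1, Jak1 and Rfx5 in B16 and at Lnpep and Erap1 in MC38. Actb and Gapdh, as housekeeping genes, had H3K9Ac of 40.9 ± 2.82 and 29.6 ± 2.76 RPM in B16 controls and 32.7 ± 5.53 and 32.4 ± 6.61 RPM in MC38 controls, and neither passed. The Setdb1 region was called higher in MC38 than in B16 in controls (log2 change 0.33, SE 0.10, adjusted p = 0.0495) and in Setdb1 KO cells (0.50, SE 0.10, adjusted p = 0.00801).

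The mean standardized H3K9Ac profile of the 10 genes over the 12 libraries was lowest in replicate 2 of both B16 groups and highest in replicate 1 of both MC38 groups. H2-D1 (Pearson r = 0.943), H2-K1 (0.889), Tap1 (0.87) and Psmb8 (0.862) lay closest to it, Tap2 (0.796), Psmb10 (0.698), Tapbp (0.694), Psmb9 (0.635) and Nlrc5 (0.607) followed, and B2m (0.291) was apart. Each of these genes is itself part of the profile. Outside the 10, the genes most like it were Rnaset2a (0.973), Ccdc9 (0.968), 2810025M15Rik (0.968), Ercc1 (0.964) and Unc119b (0.964), picked as the highest of all tested regions over the same 12 libraries, which share depth and scaling.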

How the data were processed

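Chromatin immunoprecipitation libraries for H3K9me3 and H3K9Ac were made from 4 groups of cells, 3 replicates each (24 files; 4 input samples were not used here). Per the submitters' processing notes, the tools were cutadapt, Bowtie2 2.1.0, SAMtools 0.1.8, SICER 1.1 and deepTools 3.1.1, with the build mm10. The deposited unit is a read count: each file made by the authors lists the islands of 1 library with its reads per island, unscaled, and the smallest islands listed held 31 to 62 reads for H3K9Ac and 29 to 49 for H3K9me3. Which input served as background, the read filters and the island settings are not given in the sources used here. Weak enrichment below an island is missing from such files, which makes low levels appear as 0.

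Counts were apportioned to gene regions by overlap and rounded, and compared in R 4.3.3 with the quasi-likelihood test of edgeR 4.0.16, which scaled the 12 libraries of a mark by TMM, trended the dispersion over abundance and fitted all 4 groups together. Regions with a mean of at least 10 reads were tested, p-values were adjusted by Benjamini-Hochberg over all of them, and an adjusted p under 0.05 was called. Every adjusted p in the text is from edgeR unless DESeq2 (1.42.0) is named. The fit was tested on simulated data. The depth of the libraries, given with the results, and the spread between 3 replicates limit the precision. Since separate cultures are not stated, p-values speak only of library-to-library spread, which may be technical.

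The 10 genes were all named. Of 2 lists of pathway genes and regulators, counts and up to 3 genes with the smallest p per comparison were named; neighbors within 2 kb, the 5 genes with the most similar profile (log2 of RPM plus 0.5) and 3 reference genes were also named, and Rfx5 and the marker genes were named after their values were seen. One gene that this rule names is not reported here. The genes and lists were chosen with earlier results of these data known. H3K9Ac libraries with the same replicate number deviated together within a line (r of 0.267 to 0.531 in B16 and 0.156 to 0.497 in MC38, control with Setdb1 KO), so the numbers were taken to pair them there; this comes from the data, not from the labels. Between the lines, same-numbered H3K9Ac libraries were also the most alike in every pair, but weakly. There r was 0.085 to 0.221 in controls and 0.088 to 0.244 in Setdb1 KO cells. For H3K9me3, each comparison had at least 1 pair under 0.1. Alternatives were no filter, 2 other scalings, DESeq2, the replicate block, flanks of 0 and 5 kb, 2 kb around the 5′ end (H3K9Ac; for genes whose strand is not given, the end with more reads), islands without the 25% of fewest reads per kb, the 6 compared libraries alone, and leaving out each library.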

Additional observations from a re-analysis of the deposited data

How the results depend on the processing

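The number of the 10 genes called moved as follows. For H3K9Ac in controls, MC38 against B16, it was 1 with all libraries and 1 also with no filter, either other scaling, stricter islands, the replicate block or the 6 compared libraries, 2 with DESeq2 or with flanks of 5 kb (Tap2 and Psmb10), 3 around the 5′ end (Tap2, H2-D1 and Psmb10) and 0 without flanks, and 0 to 1 when 1 library was left out; without MC38 control replicate 2 the gene called was Nlrc5 in place of Tap2. In Setdb1 KO cells it was 0, but 4 with DESeq2, 3 with the replicate block (H2-K1, H2-D1 and Nlrc5), 2 with stricter islands (Tap1 and Tap2), 2 around the 5′ end (H2-D1 and Tap2), 1 with flanks of 5 kb (Psmb10), 1 with the 6 compared libraries (Nlrc5), and 0 to 1 when 1 library was left out: Nlrc5 without MC38 control replicate 2 and H2-K1 without MC38 Setdb1 KO replicate 3. Between the lines, same-numbered H3K9Ac libraries deviated together only weakly (r of 0.085 to 0.244), and the main fit has no block. With the block, H3K9Ac calls over all regions went from 6472 to 8582 in controls and from 5963 to 8049 in Setdb1 KO cells. For H3K9me3 in controls it was 0, but 1 (Nlrc5) with no filter, with DESeq2's size factors, with total island reads and with flanks of 5 kb, 2 (Nlrc5 and H2-K1) with the 6 compared libraries, and 0 to 2 when 1 library was left out, the 2 without MC38 Setdb1 KO replicate 3. In H3K9me3 of Setdb1 KO cells it was 0, and 0 to 2 when 1 library was left out, the 2 (H2-K1 and Nlrc5) again without that library. In the other 6 comparisons it was 0 in every alternative run, and none of the 16 single-gene changes recomputed (H2-K1, H2-D1, Tap1, Tap2, Psmb10 and Nlrc5 between the lines in H3K9Ac, Tap2 in B16 and H2-K1 in MC38 for the knockout, and Nlrc5 and H2-K1 in H3K9me3 of controls) turned its sign; the other genes were not followed one by one. DESeq2 gave no p for H2-K1 and Nlrc5 in H3K9me3. The cause of these differences was not tested.

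Over all regions, the H3K9Ac calls of the knockout were 28 in B16 and 42 in MC38, and 17 to 67 and 29 to 119 when 1 library was left out, 0 and 0 with the 6 compared libraries and 1024 and 874 with DESeq2. The H3K9me3 calls were 80 and 35, 52 to 165 and 10 to 154, 0 and 0, 2126 and 1840, and 6 and 0 with the replicate block. Between the lines, H3K9Ac calls were 6472 in controls and 5963 in Setdb1 KO cells, 10769 and 10274 with DESeq2 and 3591 and 3001 around the 5′ end, and H3K9me3 calls were 1832 and 2055, 7042 and 7218 with DESeq2, 401 and 468 with the block, and 3655 in controls with the 6 compared libraries. For the difference of knockout effects, calls were 58 for H3K9Ac and 102 for H3K9me3, 1392 and 2863 with DESeq2, and 35 and 7 with the block. A region under the smallest listed island is at 0 whatever its reads, so low H3K9me3 levels rest on whether an island was called.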
